A study of Mus musculus with 1 sample.

Results

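Semaphorin, plexin, neuropilin, Eph, ephrin, netrin, Unc5, Slit and Robo genes were read in RAW264.7, a macrophage-like mouse line. The members were the probes whose symbol in the platform annotation belongs to one of these families, which gave 72 probes of 65 genes out of 20690 named probes of 19321 genes. Epha1, Ephb2 and Ntn5 match the families too, and none of the named probes carries these symbols, so they have no reading. The study was designed to compare parental RAW264.7 cells with clones that lost peroxiredoxin uptake after ENU, a chemical mutagen. The sample used here is 1 one-colour array of the parental line, genotype parental, grown in RPMI-1640 with 10% FCS and given no mutagen. The mutant lines were not analysed here, so no group was compared with another, there are no replicates and no p-value is given.

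Guidance genes were first known from the steering of growing axons, and most also act in blood vessels, bone and immune cells. Semaphorins bind plexins, with neuropilins as co-receptors for the secreted class, and plexins act on small GTPases and so on actin and adhesion. Eph receptors are tyrosine kinases that meet membrane-bound ephrins on neighbouring cells, netrins bind Unc5 receptors and Dcc, and Slits bind Robo receptors.

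Each reading is the median pixel intensity of a spot in the red channel, in arbitrary units, with no local background subtracted. A gene takes its highest probe. The blank limit, 22.98, is the mean plus 2 SD of the blank spots with 5% left out at each end (mean 20.6, SD 1.18). The higher receptor limit, 55.8, leaves below it 95% of the 1222 probes of olfactory, vomeronasal and taste receptors, which a macrophage line has little known use for. Signal depends on the probe, so genes were not ranked against each other, and a low reading does not tell a scarce transcript from a weak probe. In a bulk sample, fewer expressing cells and less RNA per cell cannot be told apart. The error between spots of the same name gives a scale for single readings. The 24 spots of each of 2 positive controls had a CV of 4.98% and 5.37%, and the SD of the 4 negative controls, 24 spots each, lay between 0.666 and 1.81 units. Of these 96 negative control spots, 4 read over the blank limit, the highest at 26.3, so calls just above that limit lie within the range of such spots. These values cover differences within the array only, and the number of arrays limits the precision.

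Receptors of semaphorins gave signal in the parental cells, and most of the other guidance genes lay near the blanks. Of the 65 genes, 40 passed the blank limit, or 61.5% (exact Clopper-Pearson 95% interval 48.6 to 73.3), where 72.8% of all genes did. The receptor limit was passed by 10, or 15.4% (7.63 to 26.5), where 42.8% of all genes passed it. The intervals treat genes as draws and cover counting only. The remaining members were 30 genes between the limits, from 23.5 to 53.5, and 25 not over the blank limit, from 17 to 22.9. The median member read 25 and the median of all genes was 40.1. With the 99th percentile of the receptor probes as the limit, 4 members passed in place of 10, and 27.5% of all genes.

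**Figure D1:**
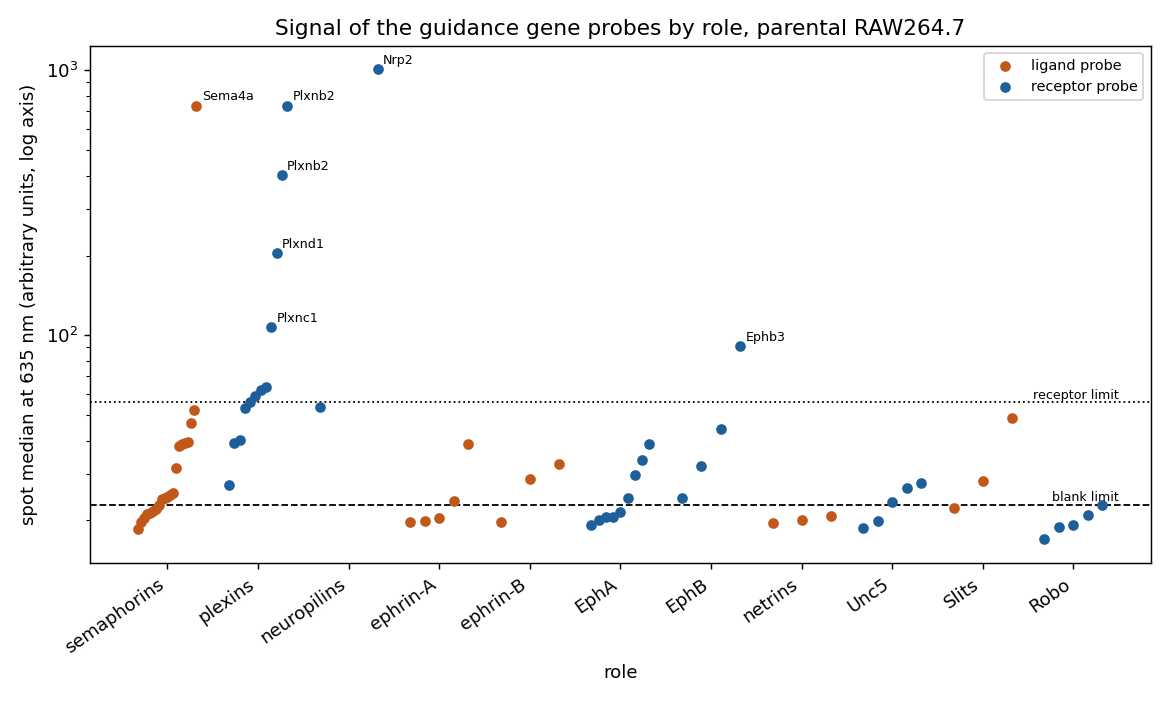
Spot median of each of the 72 probes (vertical axis, arbitrary units, log scale) by role (horizontal axis), with ligand probes in orange and receptor probes in blue; the dashed line is the blank limit of 22.98 and the dotted line the receptor limit of 55.8. Probes over 80 carry their gene's symbol; Sema4a is the ligand over the receptor limit, and the other probes over it are plexins, Nrp2 and Ephb3.

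By role, 22 of 31 receptor genes were over the blank limit, 9 of them over the receptor limit as well. Of 34 ligand genes, 18 were over the blank limit, with 1 over the receptor limit. The 9 plexins and 2 neuropilins made up 8 of the 9 receptor genes over the receptor limit. Without them, 29 of 54 genes, or 53.7% (39.6 to 67.4), were over the blank limit, with 2, or 3.70% (0.452 to 12.7), over the receptor limit. This split was not in the plan and takes out roles with high readings, so the contrast follows in part from the choice. Of the receptors of smell and taste, 37.2% of 1211 genes lay over the blank limit, and 5.12% over the limit built from them.

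**Figure D2:**
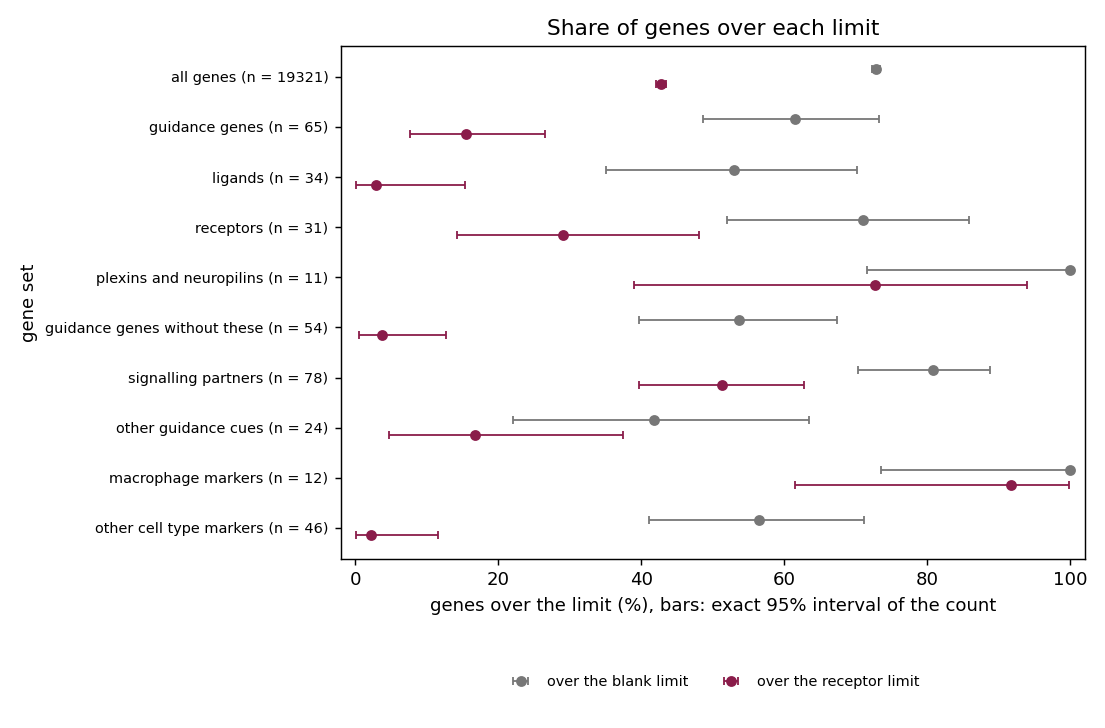
Share of genes over the blank limit (grey) and the receptor limit (dark red) in each set, in percent, with exact 95% intervals of the count as bars and the number of genes in brackets. At the receptor limit the plexins and neuropilins stand at 72.7% (39 to 94), all genes at 42.8% and the guidance genes without plexins and neuropilins at 3.70%. Each gene is taken at its highest probe. The split into these groups was not planned and takes out roles with high readings.

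All 9 plexins were over the blank limit, with 7 over the receptor limit, or 77.8% (40 to 97.2). Of all genes, 72.8% and 42.8% passed these limits, and the interval of the 77.8% includes 42.8%. The 77.8% rests on the highest probe of each gene, and Plxna1, Plxna2 and Plxnb2 have 2 probes each. With the lowest probe, Plxna1 and Plxna2 were not over the receptor limit, which 40.4% of all genes then passed. Plxnb2, a receptor of class 4 semaphorins, read 735 and 402.5 on its 2 probes, so both lay clear of both limits. Plxnd1, the receptor that binds the secreted semaphorin Sema3e without a neuropilin, read 204, or 8.88 times the blank limit. Plxnc1, the receptor of the membrane-anchored Sema7a, read 107, or 4.67 times that limit. Of these 3 genes, Plxnb2 and Plxnd1 passed the receptor limit with room to spare and in all 7 settings of it. Plxnc1 passed in 6, and the area around its spot read 58.5, itself over the receptor limit.

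The other 4 plexins over the receptor limit lay close to it. Plxnb3, which binds Sema5a, read 63.6, and Plxnb1, which binds Sema4d, read 56.2, just over 55.8. The probes of Plxna1, a class A plexin used by membrane semaphorins and with neuropilins by secreted ones, read 62.4 and 39.1. Those of Plxna2, of the same class, read 59.0 and 53.3. Both class A genes thus had 1 probe over the receptor limit and 1 between the limits. Plxna3 at 27.1 and Plxna4 at 40.3, also of class A, lay between the limits. Plxnb1 passed in 3 of the 7 settings and Plxna1 and Plxna2 in 5, so these calls depend on where the limit is set. Plxna3 and Plxna4 passed the blank limit in 9 of 11 settings, and with local background subtraction or normexp 7 of the 9 plexins did.

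Both neuropilins passed the blank limit. Nrp2, a co-receptor for class 3 semaphorins and for vascular endothelial growth factors, read 1008, which is 43.9 times the blank limit. It lay over the receptor limit in all 7 settings. Nrp1, its paralog, read 53.5 and lay just under the receptor limit, which it passed in 1 setting.

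Among 20 semaphorins, 12 were over the blank limit, or 60% where 72.8% of all genes were, with 1 over the receptor limit. That gene was Sema4a, a membrane semaphorin of class 4 with known roles between immune cells, at 736 or 32.0 times the blank limit, and it passed in all 7 settings. Its class had 5 of 6 genes over the blank limit. Sema4d, known as CD100 on lymphocytes, read 39.6 and 31.5 on its 2 probes, Sema4c read 38.4, Sema4b 24.5 and Sema4g 24.2. Sema4f, at 21.7, was not over it. The 4 other class 4 genes over the blank limit stayed under the receptor limit on each of their probes.

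The secreted class 3 semaphorins, the partners of neuropilins, were mostly not over the blanks. Of 7, Sema3f at 39.2 and Sema3a at 25.3 passed the blank limit, and Sema3b, Sema3c, Sema3d, Sema3e and Sema3g read from 18.5 to 22.9. Sema3e, at 22.9, lay 0.998 times the blank limit and passed it in 3 of 11 settings. In classes 5 and 6, which are membrane proteins, Sema5a read 52.2, Sema5b 24.4, Sema6a 39.0, Sema6b 25 and Sema6c 46.5, all between the limits; Sema5a passed the receptor limit in 3 of its 7 settings. Sema6d at 21.4 was not over the blank limit, nor was Sema7a, the member with a lipid anchor, at 21.1.

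**Figure D3:**
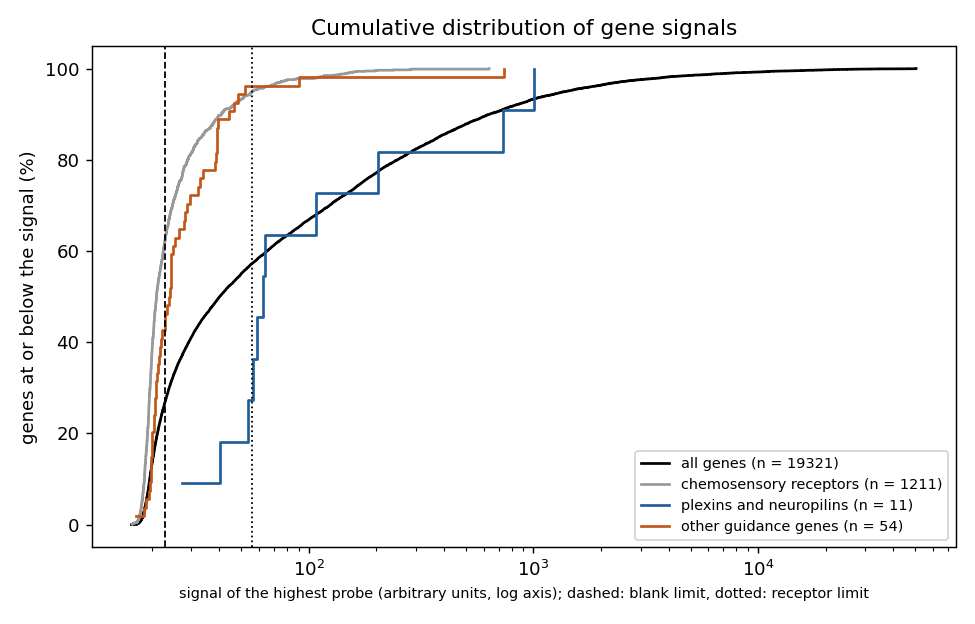
Cumulative share of genes (vertical axis, percent) at or below a signal (horizontal axis, arbitrary units, log scale) for all genes in black, receptors of smell and taste in grey, plexins and neuropilins in blue and the other guidance genes in orange; the dashed line is the blank limit and the dotted line the receptor limit. Of the 54 other guidance genes, 53.7% lie over the blank limit, against 37.2% of the receptors of smell and taste and 72.8% of all genes, and 3.70% lie over the receptor limit, against 5.12% and 42.8%. Setting the plexins and neuropilins apart was not planned.

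Of 12 Eph receptors, 8 lay over the blank limit and 1 of these also over the receptor limit. These are 66.7% and 8.33%, where 72.8% and 42.8% of all genes passed. In subclass B, which binds ephrin-B proteins, all 4 measured genes were over the blank limit (interval 39.8% to 100%). Of them, 2, Ephb3 and Ephb4, stayed over it with local background subtraction or normexp. Ephb3 read 90.7, over the receptor limit in 6 of 7 settings. Ephb4, known for separating arteries from veins, read 44.2, Ephb1 read 32.2, and Ephb6, whose kinase domain is inactive, read 24.4. In subclass A, 4 of 8 were over the blank limit, with 0 over the receptor limit. Epha10 read 39.0, Epha3 33.9, Epha2 29.7 and Epha8 24.4. Epha4, Epha6 and Epha7 read from 20.1 to 21.5, and the probes of Epha5 read 20.7 and 19.3, so none of these 4 passed.

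The ephrins, their ligands, are held in the membrane of the neighbouring cell. Of the 5 ephrin-A genes, whose products are held by a lipid anchor, Efna1 at 38.8 and Efna2 at 23.8 passed the blank limit, and Efna3, Efna4 and Efna5 read 19.8, 19.9 and 20.4. Of the 3 ephrin-B genes, which encode transmembrane ligands, Efnb3 at 32.7 and Efnb1 at 28.7 passed, and Efnb2, the partner of Ephb4, read 19.7. None of the 8 ephrins passed the receptor limit.

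Netrins and Robo receptors gave no reading over the blank limit. The netrins Ntn1, Ntn3 and Ntn4 read 20.8, 19.5 and 20.1. Robo1 read 18.9, Robo2 17.0 and the endothelial Robo4 20.9, and the probes of Robo3 read 22.8 and 19.2. Robo3, at 0.994 times the blank limit, passed it in 3 of 11 settings. Slits and Unc5 receptors lay on both sides of that limit. Slit3 read 48.6 and Slit1 28.1, while Slit2 read 22.3. Unc5c read 27.8, Unc5b 26.5 and Unc5a 20, and the probes of Unc5d read 23.5 and 18.7, on different sides of the blank limit. Of netrin receptors outside these families, Dcc read 21.8, Neo1, neogenin, read 35.6 and Dscam read 167, over the receptor limit.

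Known ligand and receptor pairs, chosen after the values were seen, were set side by side. Sema4a passed the receptor limit, as did Plxnb2 and Plxnd1, which are among its receptors. These are not all of its possible partners. Timd2, a semaphorin partner measured on the same array, stayed under both limits at 21.8. Plxnd1 passed while its secreted ligand Sema3e, at 22.9, was not over the blank limit. Plxnc1 passed while its ligand Sema7a, at 21.1, was not over the blank limit. Nrp2 passed with 0 of 7 class 3 semaphorins over the receptor limit, while Sema3f at 39.2 and Sema3a at 25.3 were over the blank limit. Plxnb1 at 56.2 and Plxnb3 at 63.6 passed, with Sema4d at 39.6 and Sema5a at 52.2 between the limits. Ephb4 at 44.2 was between the limits and Efnb2 at 19.7 under both. Robo1 at 18.9 and Slit2 at 22.3 were both not over the blank limit. These readings are of transcripts in 1 culture and hold nothing on ligand made by other cells or in serum.

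Of the 65 genes, 7 had more than 1 probe, and the probes of 1 gene, Unc5d, fell on different sides of the blank limit. Among all 1283 genes with several probes, 29.4% disagreed on it. The receptor limit divided the probes of 2 of the 7, Plxna1 and Plxna2, and 35.2% of the 1283. The median ratio of the highest to the lowest probe was 1.26 for the 7 genes and 1.89 for all 1283. The other 58 members rest on 1 probe.

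Many members lay close to the blank limit. Within 10% over it were 8 genes, Unc5d, Efna2, Sema4g, Sema5b, Epha8, Ephb6, Sema4b and Sema6b, from 23.5 to 25. Within 10% under it were 10 genes, Sema3e, Robo3, Slit2, Sema3d, Sema4f, Epha6, Sema6d, Sema7a, Robo4 and Ntn1, from 22.9 down to 20.8. Over the 11 settings of the blank limit, 28 members passed in all, 21 in none and 16 in some.

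The local background, read around each spot, differed between members of like spot signal. Sema4a read 736 with 24.1 around the spot. The Plxnb2 probe at 735 had 296 around it, and the other Plxnb2 probe, at 402.5, had 20.7. Nrp2 had 208.8 around its spot and Plxnd1 35.3. Efna1, at 38.8, had 37.6 around it, so its excess over the local background was 1.16. Over all gene probes, spot and local background rose together (Spearman's rho 0.879 across probes, which are not independent and share 1 array). Of 23473 gene probes, 12095 had a local background that itself lay over the blank limit. The median local background was 17.1 at the blanks and 20.7 at the member probes. How far a reading over the blank limit comes from the surroundings of the spot was not tested. Subtracting the local background left 28 members over the blank limit and 10 over the receptor limit, against 63.2% and 41.4% of all genes. Of these 10, 9 were also over it as reported: Plxnb1 was no longer over and Sema5a was. Efna1 did not pass the blank limit after it.

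**Figure D4:**
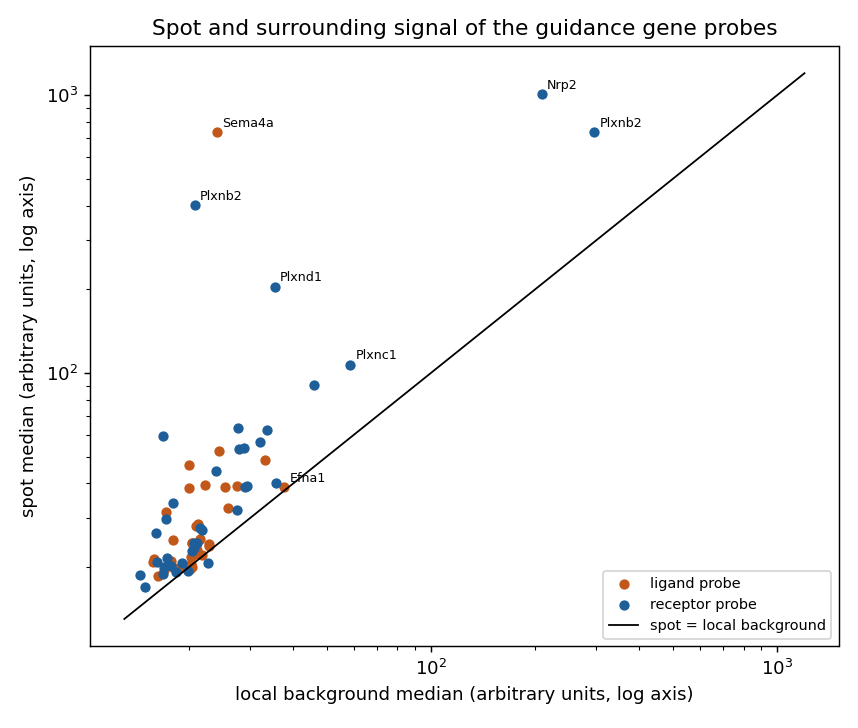
Spot median (vertical axis) against local background median (horizontal axis) of the 72 probes, both in arbitrary units on log scales, with ligand probes in orange, receptor probes in blue and the line of equal values in black. Of the probes, 68 lie above the line; Sema4a and 1 Plxnb2 probe lie far above it, while Efna1 lies almost on it.

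Promoter sequence was set beside these readings, because PU.1, the myeloid factor encoded by Spi1, acts on macrophage genes through sites with a purine-rich core. Spi1 read 858. Sequences are from RefSeq, build GRCm38.p6, as windows from 250 bases before to 50 after each listed start, and 56 of the 65 genes had at least 1. The motif searched was GAGGAAG on either strand (CTTCCTC on the other). It stood in the windows of 16 of the 56 genes, or 28.6%, and of 15.5% of 17492 protein-coding genes with a window. By signal, it was in 4 of 9 members over the receptor limit, 5 of 24 between the limits and 7 of 23 under both. These are 44.4%, 20.8% and 30.4%. Of all named genes with a window, 15.3%, 15.2% and 14.5% of the same classes held it, and no test was made. Counted by window, it was in 17 of 72, or 23.6%, and in 13.6% of 21263. The AP-1 motif TGANTCA, added after the data had been examined, was in 3 of the 56 genes and 8.12% of protein-coding genes. The members' windows had a median GC content of 65.7%, and those of protein-coding genes 56.3% (quartiles 48 and 64). The median ratio of observed to expected CpG was 0.669 and 0.565. A match is a run of letters and not a shown site, and no match says nothing about the factor.

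Of the 9 members over the receptor limit with a window, the 250 bases before a start are given for the 4 that hold the motif and, for contrast, for Nrp2 and 1 of the 2 starts of Plxnb2, a choice made after the search; Plxna2, Plxnb1, Ephb3 and the other start of Plxnb2 lack it too. Sequences run 5′ to 3′ on the gene's strand. Capitals mark the PU.1-type motif on either strand, which Plxnd1 and Plxnc1 each hold 2 times and Plxnb3 and this start of Sema4a 1 time, and which the windows shown for Nrp2 and Plxnb2 do not hold.
Nrp2, chr1:62703067-62703316, plus strand: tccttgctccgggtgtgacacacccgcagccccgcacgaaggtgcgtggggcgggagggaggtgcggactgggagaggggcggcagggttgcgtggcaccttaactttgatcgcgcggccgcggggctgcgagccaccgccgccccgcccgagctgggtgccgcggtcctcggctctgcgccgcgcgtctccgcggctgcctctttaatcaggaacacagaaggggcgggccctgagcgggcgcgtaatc
Plxnb2, chr15:89180789-89181038, minus strand: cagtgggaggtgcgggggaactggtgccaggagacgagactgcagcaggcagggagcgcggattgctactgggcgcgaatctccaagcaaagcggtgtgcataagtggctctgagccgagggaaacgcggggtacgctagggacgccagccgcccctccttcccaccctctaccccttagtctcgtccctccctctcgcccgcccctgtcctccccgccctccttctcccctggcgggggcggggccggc
Plxnd1, chr6:115995006-115995255, minus strand: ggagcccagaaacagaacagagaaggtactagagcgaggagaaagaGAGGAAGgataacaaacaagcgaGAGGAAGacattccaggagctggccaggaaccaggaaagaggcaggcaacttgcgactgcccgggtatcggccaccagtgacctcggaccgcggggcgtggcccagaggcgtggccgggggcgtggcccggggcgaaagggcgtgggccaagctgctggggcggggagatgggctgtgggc
Plxnc1, chr10:94944846-94945095, minus strand: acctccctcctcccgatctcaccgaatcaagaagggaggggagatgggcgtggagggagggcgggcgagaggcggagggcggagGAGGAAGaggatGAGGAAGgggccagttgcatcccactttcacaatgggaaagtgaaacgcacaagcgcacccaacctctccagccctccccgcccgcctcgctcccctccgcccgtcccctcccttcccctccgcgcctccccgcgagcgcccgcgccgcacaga
Plxnb3, chrX:73756853-73757102, plus strand: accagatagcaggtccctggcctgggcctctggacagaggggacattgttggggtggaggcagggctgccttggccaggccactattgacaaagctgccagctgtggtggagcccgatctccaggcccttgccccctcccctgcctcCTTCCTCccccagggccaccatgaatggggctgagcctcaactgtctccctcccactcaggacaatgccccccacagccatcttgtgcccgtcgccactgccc
Sema4a, chr3:88459102-88459351, minus strand: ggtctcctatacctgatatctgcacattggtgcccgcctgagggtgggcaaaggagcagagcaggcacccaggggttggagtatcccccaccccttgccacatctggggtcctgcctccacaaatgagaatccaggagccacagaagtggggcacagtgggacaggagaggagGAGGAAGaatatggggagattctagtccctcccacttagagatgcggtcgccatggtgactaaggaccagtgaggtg
The windows also differ in CpG content. That of Nrp2 holds 32 CpG dinucleotides and a GC content of 72.4%, that of Plxnc1 22, and that of Plxnb2 20. The Plxnb3 window and the Sema4a window shown hold 3 each. Sema4a has 4 listed starts, and the one shown is the one with the motif.

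Genes through which these receptors signal were read on the same array. Of 32 measured partners and effectors of semaphorins and plexins, 23 passed the blank limit, which is 71.9%, while 14 passed the receptor limit, which is 43.8% (26.4 to 62.3), close to the 72.8% and 42.8% of all genes. The kinases Cdk5, Fes, Fyn and Gsk3b, which act on plexin signals, read 284, 345, 178 and 75.2. Dpysl4 and Dpysl5, of the collapsin response mediator family, read 135 and 76.7, while their relatives Crmp1 and Dpysl3 read 21.6 and 20.7. The RhoGEF Arhgef12 at 22.6 and Farp1 at 20 were not over the blank limit. The GTPases Rac1 and Rhoa, named after their values were seen, read 2924 and 2878.

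Of 26 effectors of Eph receptors and ephrins, 25 passed the blank limit, which is 96.2% (80.4 to 99.9), while 14 passed the receptor limit, which is 53.8% (33.4 to 73.4). Of all genes, 72.8% and 42.8% passed, and the interval of the 53.8% includes 42.8%. The protease Adam10, which cuts ephrins, read 1414 and 101 on its 2 probes, and Adam17 read 493 and 192. The kinase Abl1 read 115, the adaptor Crk 526, the Rac regulator Chn2 594 and the scaffold Itsn1 61.2. The scaffold Grip1, at 22.8, was the gene not over the blank limit. Of 20 genes listed as netrin and Slit partners, 15 and 12 passed, or 75% and 60% (36.1 to 80.9). Dock1, a Rac activator, read 184, Evl, an actin regulator, 202 and Dscam 167. Ift52, an intraflagellar transport gene that the list also counts, read 312. The probes of the actin-binding Ablim1 read 156 and 47.1, and those of the chemokine receptor Cxcr4 75.5 and 62.3. Besides Dcc, the genes Enah, Gpc1 and Srgap1 read 18.6, 21.0 and 19.7 and did not pass. Intracellular effectors serve many other receptors too.

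Of 24 guidance cues and receptors outside these families, 10 passed the blank limit, or 41.7% (22.1 to 63.4), and 4 the receptor limit, or 16.7% (4.74 to 37.4). The shares of all genes were 72.8% and 42.8%. Those 4 were Lrig1 at 76.6, the BMP co-receptor Rgmb at 73.3, Rtn4, which encodes the neurite inhibitor Nogo, at 2687, and the Wnt receptor Ryk at 741. Celsr3, Draxin, Flrt1 and Fzd3, at 20.5, 20.3, 21.7 and 18.8, were among the 14 not over the blank limit.

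At the receptor limit, the cells read as labelled. All 12 macrophage markers were over the blank limit, 11 of them over the receptor limit, with Mertk between them at 23.3. Of 46 measured markers of other cell types, 26 were over the blank limit, with 1 over the receptor limit. These are 56.5% and 2.17%, where 72.8% and 42.8% of all genes passed. The 11 neuron markers, the cells in which guidance genes are best known, read from 18.3 to 41.3 with 0 over the receptor limit. The 9 endothelial markers read from 18.6 to 39.6 with 0 over it. The 9 T and B cell markers read from 19.2 to 30.5. Of 7 glia markers, 5 passed the blank limit, as did 7 of 10 fibroblast and epithelial markers. Among them Mbp at 54.2, Mag at 52.4 and Pdgfrb at 55.2 lay just under the receptor limit. The marker over it was Mog, a myelin gene, at 146 on 1 probe and 18.5 on the other.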

How the data were processed

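One array of parental RAW264.7 RNA labelled with Cy5 was analysed. Per the file headers, the scanner intensity values are unsubtracted medians of each spot and of its local background, scanned at 3 gains in the red channel; for the combining of gains, a tool was not given in the sources used here. A second file holds the authors' processed intensity of this array, and no label says how it was made. By its values it follows the spot median minus the blank mean, scaled by about 0.486, with a median of 25 and 6784 empty cells for probes at 22.97 or lower; why it was scaled so stays unknown.

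All 27456 spots were used, as 0 were marked other than OK. The blank limit rests on 2464 of 2736 blanks, 5% being left out at each end. Names came from the platform annotation, updated through gene identifiers to RefSeq names (GRCm38.p6): 20690 of 23473 probes had 1 symbol, 0 had several, 2783 had none, and 20556 matched; all 72 member probes matched. No build is named for the probes, so the genes' own coordinates are not given. For 78.5% of the 19321 named genes a promoter window was found, so shares by signal class leave out the genes without one. A window was found for 80.1% of genes over the receptor limit, 77.3% between the limits and 77.1% not over the blank limit.

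The members and lists were chosen with earlier results of these data known. Every member is accounted for; of the partner and marker lists, the first 6 in alphabetical order over the receptor limit and the first 4 not over the blank limit may be named, and others were picked after their values were seen. Intervals are exact Clopper-Pearson intervals at 95%. Alternatives were other limits, other probes of a gene, local background subtraction, normexp with an offset of 50 (limma 3.58.1, R 4.3.3) and the authors' table. Counting was done in Python 3.11.15 with pandas 2.3.3 and scipy 1.17.1. The calls were also run on simulated spots with normal noise and no local background or probe effect. That run checks the calculation only and cannot show whether a call on this array is right.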

Additional observations from a re-analysis of the deposited data

How the results depend on the processing

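Under the alternatives to the blank limit, from 28 to 44 of the 65 members passed, against 40 as reported. The share of all genes ran from 63.2% to 77.2%. All 10 alternatives stayed within 1.5 times of the 40, a wide margin that admits the loss of 12 members with local background subtraction. The members' share lay under that of all genes in each. The lowest counts came with local background subtraction and with normexp, 28 each, and 33 passed with the 99th percentile of the blanks. Not all alternatives are separate checks. Normexp works on the same difference of spot and local background as the subtraction and gave the same counts. The authors' table follows the spot median with cells empty at 22.97 or lower, so its 40 members were fixed in advance. The tallies over 11 and 7 settings count these as separate. At the receptor limit, 4 members passed with the 99th percentile of the receptor probes, by construction of a higher limit, namely Nrp2, Plxnb2, Plxnd1 and Sema4a; the 5 other alternatives gave 8 to 15 against 10. The median of the members in the authors' table was 2 against 9 for all genes, on that table's own scale, where the scanner values gave 25 and 40.1; that table has the blank mean subtracted. Counts of the 4 partner and cue lists stayed within 1.5 times of those reported in every setting of the blank limit. No replicate could be left out, since there is 1 array, and no paired analysis was possible because there is 1 sample. The SD of 1.18 among the blanks kept after 5% were left out at each end, and negative control spots of up to 26.3, limit calls near the blank limit.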

Other observations

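Some members lie next to each other among protein-coding genes in the RefSeq order of GRCm38.p6, which gave 5 neighbouring pairs. Efna1, Efna3 and Efna4 follow each other, and Efna1 read 38.8 while its neighbours read 19.8 and 19.9. Sema3d and Sema3a are neighbours at 22 and 25.3, on different sides of the blank limit. Robo1 and Robo2, at 18.9 and 17, and Robo4 and Robo3, at 20.9 and 22.8, are neighbours with neither gene over that limit. None of the 5 pairs held a gene over the receptor limit.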
